A study of Mus musculus with 35 samples.

Results

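The genes described here encode the DNA replication machinery: the proteins that license and fire origins, the replicative helicase, the polymerases with their clamp, and the enzymes that supply deoxynucleotides. The list has 45 genes, chosen by function and matched by symbol. All 45 were in the deposited table of 21350 genes, and all 45 were among the 13860 genes kept by a filter on low values, which asks that 2 or more libraries reach 10. The genes were followed in mouse cells infected with reprogramming factors, from libraries prepared by poly-A selection and sequenced for messenger RNA.

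A chromosome is copied in a fixed order of steps. The origin recognition complex, Cdc6 and Cdt1 load the MCM ring onto DNA before S phase, and geminin (Gmnn) holds Cdt1 in check afterwards. Cdc45 and the GINS complex then join the ring to form the active helicase, primase starts each strand, polymerases delta and epsilon extend it on the PCNA clamp, and RPA coats the exposed single strand. Fen1 and Lig1 finish the lagging strand, while ribonucleotide reductase (Rrm1 with Rrm2), Tyms and Tk1 supply the building blocks. Many of these genes are transcribed under E2F control as cells enter S phase, and embryonic stem cells, which cycle fast with short gap phases, are known for high levels of them.

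The cells carried factor combinations labelled ODR, OA or OB, names that the labels do not expand. They were cultured in the reprogramming medium iCD1 and collected at days 1, 6 and 14. The tests use 2 libraries of each combination at day 1, then 2 ODR, 3 OA and 4 OB libraries at day 6, and 3 of each at day 14. Of the cells given BMP4, a growth factor, at 10 ng/ml from the change to iCD1 medium, 1 ODR and 2 OB libraries of day 6 were tested. Single libraries of ODDR and ODB cells at day 9, mouse embryonic fibroblasts (MEF) and mouse embryonic stem cells (mESC) have no replicate. The labels do not say that replicates came from separate cultures, so p-values measure the spread between these libraries, which may be technical.

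Values are the deposited normalized tag counts, whole numbers that are not raw reads. Column totals ran from 4255921 to 4398785, so the sequencing depth is unknown, and the common ceiling of 18690 was reached by no replication gene, whose highest value was 2408. Kdm2b is a histone demethylase that recruits the variant Polycomb complex named in the series title. Without BMP4 it was at 18690 in the OB libraries of days 1 and 6, and at 4220 to 6246 at day 14. In the tested ODR libraries Kdm2b was between 230 and 460. Its paralogue Kdm2a was at 9294 or above in the OA libraries except the library labelled OA day 14 replicate 2, at 721. There were 2 pairs of columns identical at every gene: ODR day 6 replicate 3 equals ODR day 6 with BMP4 replicate 2, and the ODDR and ODB columns with BMP4 at day 9 are equal. The shared day 6 column was left out of both labels, and the shared day 9 column was not used. In the MEF library the summed level of 10 fibroblast markers was 59166 and that of 10 pluripotency markers 5, against 5331 and 17134 in the mESC library.

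**Figure D1:**
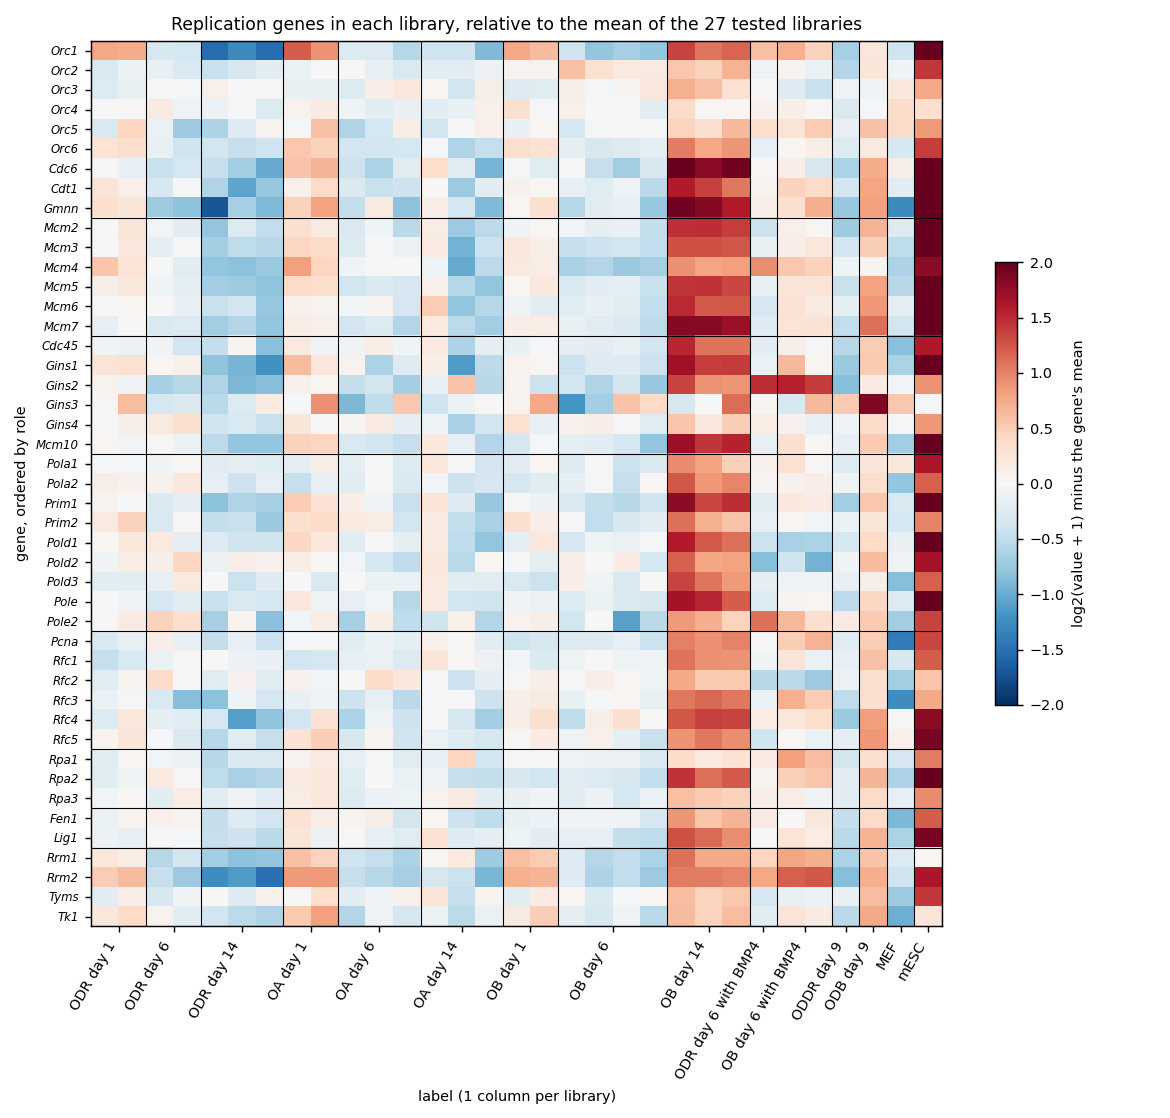
Level of each replication gene in each library, as log2(value + 1) minus the gene's mean over the 27 tested libraries. Columns are libraries grouped by label and genes are ordered by role, with red above and blue below the mean. The OB day 14 columns, whose median over the 45 genes was 0.92 to 1.10, and the mESC column are the reddest, and the ODR day 14 columns are mostly blue.

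At day 14 almost the whole replication machinery was higher in OB than in ODR cells. Of the 45 genes, 43 were called higher and 0 lower, beside 28% of all genes called higher and 26.7% called lower, where a gene is called at a Benjamini-Hochberg adjusted p below 0.05 over the 13860 genes (limma on log2(value + 1)). The median log2 fold change over the 45 was 1.50, and over all genes tested it was 0.01. In 44 of the 45 genes every OB library lay above every ODR library, which was so for 31.6% of all genes tested. In bulk RNA, more cells of a replicating kind and more RNA per cell cannot be told apart.

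Origin licensing genes were called higher at 8 of 9, with a median log2 fold change of 1.31. Gmnn, the inhibitor of Cdt1, was at 176, 162 and 136 in the OB libraries and at 13, 28 and 24 in the ODR libraries. Every OB library was far above the ODR libraries, and the 7.30-fold difference was the largest of the 45 (log2 fold change 2.87 ± 0.29 SE, adjusted p = 2.76e-07, n = 3 and 3). Cdc6, the ATPase that helps load the helicase, had 306, 230 and 252 in OB and 47, 40 and 32 in ODR cells (2.70 ± 0.25, adjusted p = 9.27e-08).

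The subunits of the origin recognition complex did not move by one amount. Orc1, the subunit whose level is known to follow the cell cycle, was at 116, 96 and 102 in OB and at 15, 18 and 15 in ODR (2.64 ± 0.15, adjusted p = 1.25e-09). Orc6 differed by 1.31, Orc2 by 0.89, Orc5 by 0.75 and Orc3 by 0.49 on the log2 scale, all called. Orc4 was at 336, 262 and 266 in OB and at 238, 253 and 214 in ODR cells, groups that did not overlap but differed by 0.29 ± 0.12 (adjusted p = 0.0603) and were not called. The differences between the subunits' fold changes were not tested, and the Orc5 call was lost without ODR day 14 replicate 1 (adjusted p = 0.0807).

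**Figure D2:**
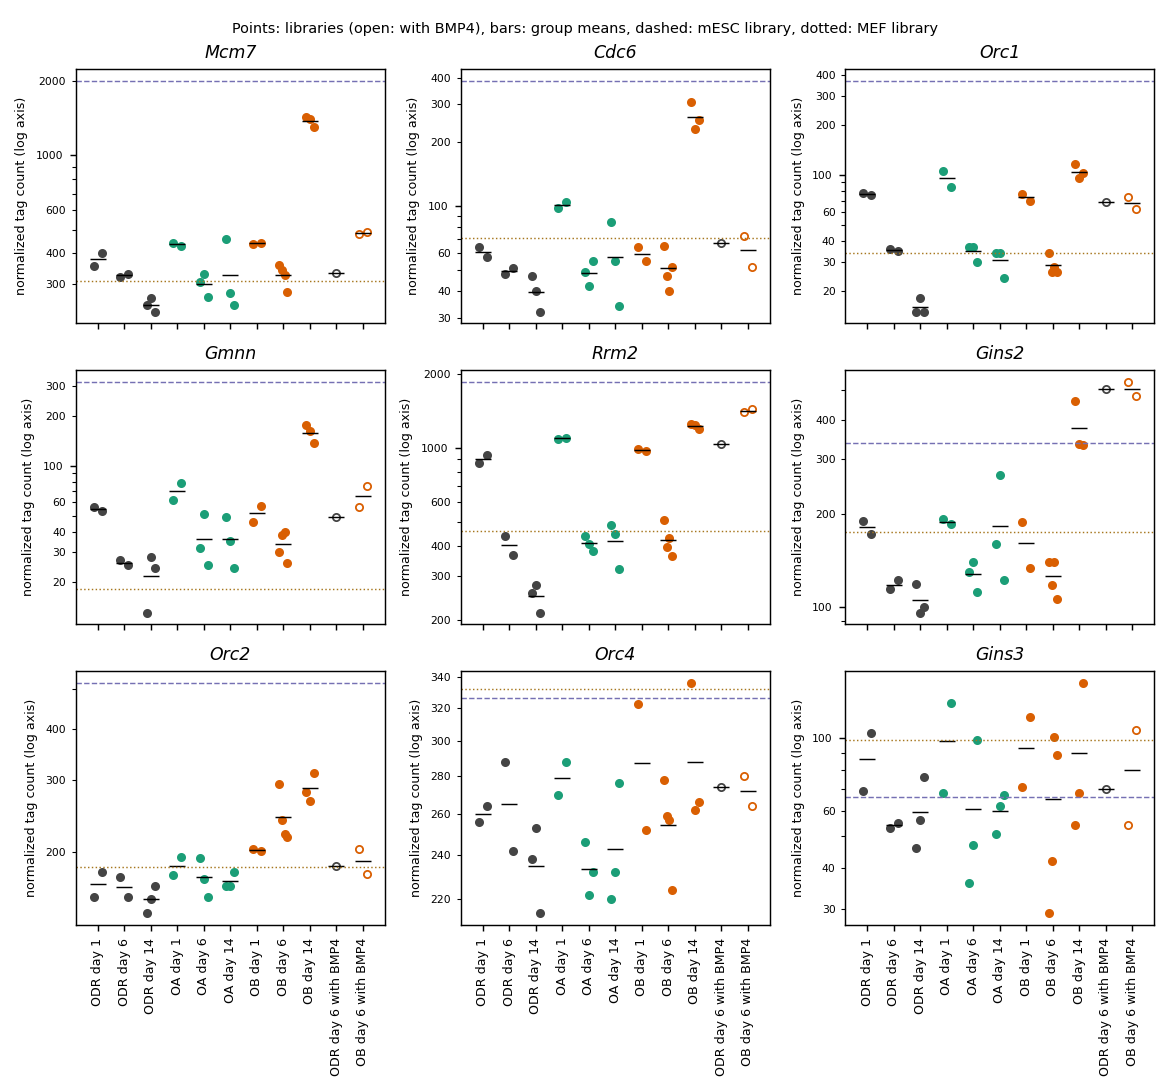
Normalized tag counts of 9 replication genes in the tested libraries, on log axes with a separate scale for each gene. Points are libraries, open points were given BMP4, short bars are group means, and the dashed and dotted lines mark the single mESC and MEF libraries. Mcm7, Cdc6 and Gmnn stand out at OB day 14, Orc1 and Rrm2 are lower at day 6 than at day 1 in each combination, Gins2 is highest with BMP4, and Orc4 and Gins3 overlap between most groups.

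The MCM ring, the motor of the replicative helicase, was called higher at 6 of 6 subunits, within a narrow range of log2 fold changes from 1.63 (Mcm4) to 2.48 (Mcm7). Mcm7 was at 1431, 1408 and 1310 in OB and at 246, 264 and 232 in ODR cells (2.48 ± 0.16, adjusted p = 4.74e-09). Mcm2 was at 1266, 1280 and 1203 in OB and at 264, 381 and 324 in ODR cells. For both subunits the OB libraries were close to each other and several times above the ODR libraries.

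Helicase activation genes were called higher at 5 of 6, with a median of 1.74. Gins1, a GINS subunit, was at 134, 108 and 109 in OB and at 23, 21 and 17 in ODR (2.47 ± 0.25, adjusted p = 2.39e-07), and Mcm10, which acts in origin firing, was at 495, 406 and 436 against 104, 87 and 87. The other GINS subunits spread widely, with log2 fold changes of 1.82 for Gins2 and 0.80 for Gins4. Gins3 was at 54, 68 and 148 in OB and at 46, 56 and 76 in ODR, groups that overlapped (0.48 ± 0.48, adjusted p = 0.413). Its libraries varied more than those of the other GINS genes in this comparison.

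Polymerase genes were called higher at 9 of 9, with a median of 1.32. Prim1, the catalytic primase subunit, was at 274, 199 and 220 in OB and at 44, 51 and 49 in ODR (2.23 ± 0.19, adjusted p = 5.49e-08). Its partner Prim2 differed by 1.34, and the polymerase alpha subunits Pola2 and Pola1 by 1.27 and 0.96. Among the extending polymerases, the catalytic subunits Pole and Pold1 differed by 1.83 and 1.65, and the accessory subunits Pold3, Pole2 and Pold2 by 1.32, 1.15 and 0.89. In each of these 9 genes the lowest OB library exceeded the highest ODR library.

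The clamp and its loader were called higher at 6 of 6. Pcna, the sliding clamp, was at 1512, 1412 and 1492 in OB and at 540, 664 and 555 in ODR (1.33 ± 0.11, adjusted p = 3.55e-08). Rfc4 had the largest change of the loader subunits, from 51, 30 and 37 in ODR to 157, 170 and 168 in OB (2.07 ± 0.24, adjusted p = 1.04e-06), and Rfc2 the smallest at 0.72. All 3 RPA genes were called, led by Rpa2 at 364, 288 and 314 against 93, 85 and 88 (1.84 ± 0.11, adjusted p = 2.77e-09), while Rpa1 and Rpa3 differed by 0.66 and 0.71. Lig1, the ligase that joins Okazaki fragments, differed by 1.59 ± 0.14 (adjusted p = 9.27e-08) and the flap nuclease Fen1 by 1.07.

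Nucleotide supply genes were called higher at 4 of 4. Rrm2, the cell-cycle-dependent subunit of ribonucleotide reductase, was at 1244, 1232 and 1196 in OB and at 256, 276 and 214 in ODR (2.30 ± 0.14, adjusted p = 2.77e-09). The large subunit Rrm1 differed by 1.64, thymidine kinase Tk1 by 1.07 and thymidylate synthase Tyms by 0.59. OB libraries were higher in all 4 genes with no overlap.

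**Figure D3:**
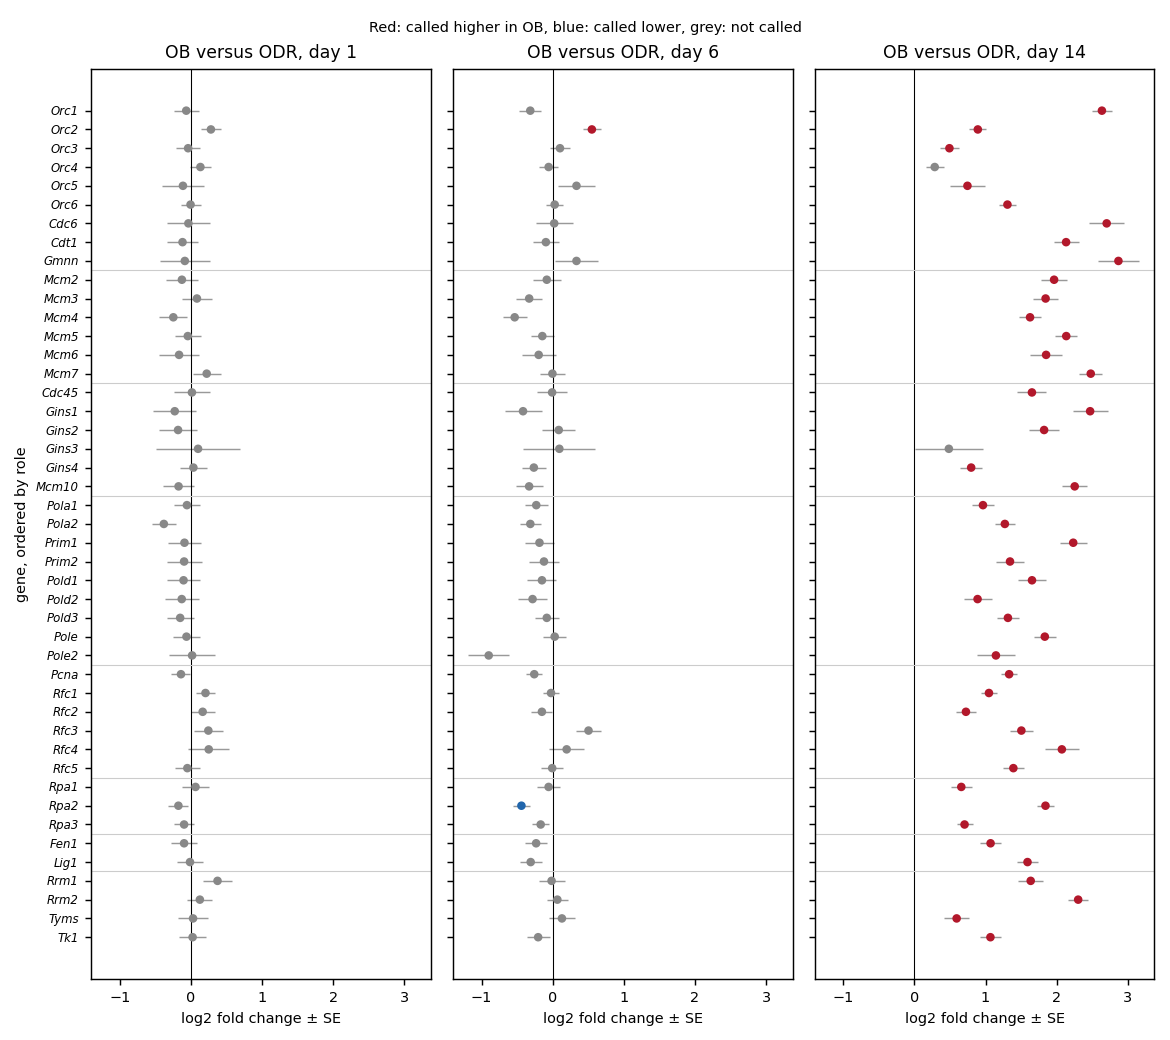
Log2 fold change of OB against ODR for each replication gene at days 1, 6 and 14, with bars of ± 1 SE from the limma fit and genes ordered by role. Red points are called higher in OB, blue called lower and grey not called. At day 1 no gene is called, at day 6 only Orc2 (higher) and Rpa2 (lower) are, and at day 14 every point is right of 0, up to 2.87 for Gmnn.

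Because these genes moved together at day 14, their promoters were read for E2F-like words (TTTGGCGC, TTTCCCGC, TTTCGCGC or TTTGCCGC on either strand) in the 250 bases before the RefSeq start. A promoter entry was found for 37 of the 45 genes, and 9 of them (24.3%) held such a word, against 2.71% of the 16395 table genes with an entry. The 9 were Orc1, Orc3, Cdc6, Mcm5, Mcm6, Mcm7, Gins3, Pola1 and Rfc3. A CCAAT word was present in 62.2% of the 37 and 39.4% of table genes, and TTTGAA or TTCGAA, the words of the cell cycle homology region, in 18.9% and 17.6%. These are matches of letters in a window, not measured binding sites. The 4 stretches below show such words in a licensing factor, a pair of MCM subunits and the catalytic subunit of polymerase alpha, 5′ to 3′ on the gene's strand, with the words in capitals:
Mcm6: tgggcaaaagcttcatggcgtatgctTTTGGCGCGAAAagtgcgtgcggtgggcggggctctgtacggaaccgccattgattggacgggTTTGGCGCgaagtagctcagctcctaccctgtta
Mcm5: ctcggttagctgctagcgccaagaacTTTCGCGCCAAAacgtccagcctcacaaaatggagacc
Cdc6: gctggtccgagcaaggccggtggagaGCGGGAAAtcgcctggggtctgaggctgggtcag
Pola1: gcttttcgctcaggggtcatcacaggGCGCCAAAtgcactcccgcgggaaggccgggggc

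The sequences are from RefSeq on build GRCm38.p6. The Mcm6 stretch is chr1:128359719-128359841 on the minus strand, the Mcm5 stretch chr8:75109330-75109393 on the plus strand, and the Pola1 stretch chrX:93632260-93632319 on the minus strand, each upstream of the annotated gene. The Cdc6 stretch, chr11:98907987-98908046 on the plus strand, lies within the annotated gene and overlaps no annotated exon. In Mcm6 the words span -110 to -40 relative to the RefSeq start, with overlapping words in the first block and a repeat in the second, and in Mcm5 overlapping words span -153 to -142. Both Cdc6 and Pola1 have 1 word, at -138 to -131. At day 14 the 4 genes differed between OB and ODR by 1.85 (Mcm6), 2.13 (Mcm5), 2.70 (Cdc6) and 0.96 (Pola1), and Gins3, which also holds a word, was not called.

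At day 14, OB cells also differed from OA cells. Of the 45 genes, 41 were called higher and 0 lower, beside 26.5% and 25.2% of all genes, with a median of 1.21. Orc4, Orc5, Gins3 and Rpa1 were not called. Cdc6 had the largest difference, with 84, 55 and 34 in OA against 306, 230 and 252 in OB (2.25 ± 0.25, adjusted p = 1.01e-06), without overlap. The comparison shares the OB libraries with the one above, and Tyms lost its call without the library labelled OA day 14 replicate 2 (adjusted p = 0.0565).

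Between OA and ODR cells at day 14, 3 of the 45 genes were called higher in OA and 0 lower, beside 2.82% and 2.53% of all genes. The estimate was above 0 in 40 of the 45, with a median of 0.21, and 13 had an unadjusted p below 0.05, as had 2674 of all 13860 genes. Orc1 was at 34, 34 and 24 in OA and at 15, 18 and 15 in ODR, a difference of 0.88 ± 0.15 (adjusted p = 0.00191) with no overlap. Rrm2 was at 486, 448 and 322 in OA and at 256, 276 and 214 in ODR (0.74 ± 0.14, adjusted p = 0.00559), again with no overlap. Rrm1 was at 1064, 1187 and 632 in OA and at 640, 584 and 608 in ODR, where 1 OA library fell inside the ODR range (0.60 ± 0.17, adjusted p = 0.0474, and 0.177 without the library labelled OA day 14 replicate 2).

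The OA day 14 libraries were unlike each other. OA day 14 replicate 1 held the highest value of the 3 in 34 of the 45 genes, such as Mcm6 at 626 against 254 and 298 and Mcm2 at 506 against 278 and 320. Which of the 3 was highest was not counted over all genes. Relative to each gene's mean, the median over the 45 was 0.04 in replicate 1 and -0.38 and -0.41 in replicates 2 and 3. Over all genes tested this median was -0.02 in replicate 1 and -0.03 and -0.04 in replicates 2 and 3. The library labelled OA day 14 replicate 2 had Kdm2a at 721, against 18690 in replicates 1 and 3, and whether it holds OA cells was not tested. This library was the highest for Rpa1, at 916 against 606 and 521, and for Gins2, at 267 against 160 and 122. In these 3 libraries the summed epithelial markers ranged from 81 to 1130, and their part in the result was not tested. The count of 3 calls became 2 without replicate 1, 5 without replicate 2 and 10 without replicate 3, and 0 in a fit of only these groups, where the adjusted p of Orc1 was 0.192 and that of Rrm2 0.294.

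The difference between OB and ODR was not called at day 1. There, 0 of the 45 genes were called in either direction (0.88% of all genes were), and the median log2 fold change was -0.05. An unadjusted p below 0.05 was found in 1 of the 45 and in 1287 of all 13860 genes. Mcm7, for example, was at 437 and 442 in OB and at 354 and 402 in ODR cells, and Cdc6 at 64 and 55 against 64 and 58. OA and ODR likewise had 0 calls at day 1 (0.0649% of all genes), with 3 genes at an unadjusted p below 0.05, beside 714 of all 13860. In OA cells 41 of the 45 estimates were above 0, with a median of 0.19, and in 23 genes both OA libraries lay above both ODR libraries, as they did in 16.2% of all genes. Between OB and OA there were 0 calls (1.4% of all genes) and 6 genes at an unadjusted p below 0.05, beside 1563 of all 13860. Here 35 of the 45 estimates were below 0, with a median of -0.19, and in 25 genes both OB libraries lay below both OA libraries, as in 21.5% of all genes.

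At day 6, when the OB cells still lacked the day 14 pattern, 1 gene was called higher than in ODR and 1 lower, beside 5.74% and 4.81% of all genes. Orc2 was at 294, 240, 222 and 218 in OB and at 174 and 156 in ODR (0.55 ± 0.12, adjusted p = 0.00838). Rpa2 was at 114, 110, 106 and 94 in OB and at 152 and 136 in ODR (-0.44 ± 0.12, adjusted p = 0.0254). In both genes the groups did not overlap, but the Orc2 call was lost without ODR day 6 replicate 2 (adjusted p = 0.128) and the Rpa2 call without either ODR library or OB day 6 replicate 4 (adjusted p up to 0.232). In a fit of only these groups the adjusted p was 0.0678 for Orc2 and 0.0665 for Rpa2.

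Against OA at day 6, 1 gene was higher in OB and 1 lower, beside 3.92% and 3.35% of all genes. Orc2 was at 194, 172 and 156 in OA cells, below all 4 OB libraries (0.48 ± 0.11, adjusted p = 0.0119). Mcm4 was at 556, 604 and 596 in OA and at 378, 393, 356 and 376 in OB, also without overlap (-0.64 ± 0.15, adjusted p = 0.0137). Without OA day 6 replicate 3 neither was called (adjusted p = 0.0757 and 0.0559), and Mcm4 was also lost without OA day 6 replicate 2 (adjusted p = 0.0619). OA and ODR had 0 calls at day 6 (2.22% of all genes), with 2 genes at an unadjusted p below 0.05, beside 1904 of all 13860.

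The change in the OB to ODR difference from day 1 to day 14 was itself tested. It was called upward in 38 of the 45 genes and downward in 0, beside 17.9% and 16.5% of all genes, with a median of 1.47. Gmnn had the largest estimate (2.96 ± 0.46, adjusted p = 0.000132), followed by Cdc6 at 2.74 and Orc1 at 2.70. Orc3, Orc4, Orc5, Gins3, Rfc2, Rpa1 and Tyms were not called, with estimates from 0.15 to 0.86. The same test for OA against ODR called 0 of 45 (0.0722% of all genes), with 1 gene at an unadjusted p below 0.05, beside 1147 of all 13860.

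Between day 1 and day 6, calls within each combination were downward. In ODR cells 5 fell and 0 rose, beside 12.5% and 12.6% of all genes, in OA cells 16 fell and 0 rose, beside 17.6% and 17%, and in OB cells 7 fell and 0 rose, beside 17.1% and 16.7%. The downward counts in ODR and OB were no larger a share of the 45 than of all genes, and only that in OA was larger. Orc1, Orc6, Rrm1 and Rrm2 were called lower in all 3 combinations. Rrm2 went from 864 and 936 to 440 and 367 in ODR (-1.16 ± 0.17, adjusted p = 0.000117). It went from 1087 and 1098 to 437, 408 and 380 in OA (-1.42 ± 0.16, adjusted p = 3.38e-06) and from 991 and 969 to 508, 395, 428 and 364 in OB (-1.22 ± 0.15, adjusted p = 9.12e-06). Every day 6 library was below every day 1 library of its combination.

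Orc1 fell by a similar amount, from 78 and 76 to 36 and 35 in ODR (-1.10 ± 0.18, adjusted p = 0.000226), by 1.43 in OA and by 1.34 in OB on the log2 scale. Gmnn was also called in ODR (-1.04) and in OA, Tk1 in OA (-1.01) and OB (-0.61), and Mcm4 in OA (-0.65) and OB (-0.83). Further genes called in OA were the licensing factors Cdc6 (-1.05) and Cdt1 (-0.62), the helicase genes Mcm2, Mcm3, Mcm5, Mcm7 and Mcm10, the loader subunit Rfc5 and the single-strand binding subunit Rpa3. Of the 16 OA calls, 7 held without each library in turn, and the count was 8 without OA day 1 replicate 2. ODR kept Orc1 and Rrm2 of its 5, with a count of 2 without ODR day 1 replicate 2 or ODR day 6 replicate 2 and 3 without ODR day 1 replicate 1. OB kept 5 of 7, losing Mcm3 and Tk1, and whether the combinations differ in this step was not tested.

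From day 6 to day 14 each combination was again compared with itself, and whether this step differs between combinations was not tested. In OB cells 42 of the 45 genes rose and 0 fell, beside 26.8% and 28.2% of all genes, with a median of 1.26. Cdc6 rose from 65, 47, 40 and 52 to 306, 230 and 252 (2.35 ± 0.23, adjusted p = 2.14e-07), and Mcm7 from 358, 344, 326 and 278 to 1431, 1408 and 1310 (2.08 ± 0.15, adjusted p = 1.38e-08). Orc2, Orc4 and Gins3 were not called, and Orc2, the gene already high in OB at day 6, went from 294, 240, 222 and 218 to 281, 267 and 312. Markers of other cell types differed between the same libraries. The 6 measured macrophage markers summed to 291 to 500 at day 6 and 6 to 36 at day 14, and 5 of them were called lower (median -2.93). Fibroblast markers went from 37187 to 39970 to 20085 to 26265, neural progenitor markers from 5333 to 6589 to 2579 to 3230, pluripotency markers from 26 to 49 to 952 to 1054 and epithelial markers from 68 to 119 to 87 to 226. Their part in the result was not tested.

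In ODR cells 6 genes fell and 0 rose from day 6 to day 14, beside 1.68% and 2.27% of all genes, with a median of -0.33 over the 45. In 26 genes every day 14 library was below both day 6 libraries, as in 21.5% of all genes. Orc1 went from 36 and 35 to 15, 18 and 15 (-1.11 ± 0.16, adjusted p = 0.000882). Gins1 (-1.05), Rrm2 (-0.70), Rpa2 (-0.69), Mcm4 (-0.66) and Gins4 (-0.63) were the others. With only 2 ODR libraries at day 6, the count was 1 without ODR day 6 replicate 1, 2 without ODR day 6 replicate 2 or ODR day 14 replicate 3, and 3 without ODR day 14 replicate 1 or 2, and of the 6 genes Orc1 was the one called in every such fit. In OA cells 0 genes were called (8.14% of all genes), with 4 at an unadjusted p below 0.05, beside 3242 of all 13860. The count was 4, all lower, without OA day 14 replicate 1 and 2, both higher, without OA day 14 replicate 3.

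In the tested libraries, BMP4 went with higher levels of part of the machinery in OB cells at day 6 and with lower levels of a few genes. Of the 45 genes, 21 were called higher with BMP4 and 4 lower, beside 15% and 17.5% of all genes, with a median of 0.42. The lower calls were no larger a share of the 45 than of all genes. Gins2, a GINS subunit, had the largest change, from 140, 118, 140 and 106 to 532 and 478, a 4.01-fold difference (log2 SE 0.23, adjusted p = 6.83e-06). Rrm2 rose from 508, 395, 428 and 364 to 1394 and 1434 (1.75 ± 0.15, adjusted p = 6e-07). In both genes the libraries with BMP4 were well above all those without, and Gins2 was higher than in any OB day 14 library.

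By role, 4 of 9 licensing genes rose and 2 fell. Orc1 rose from 34, 26, 28 and 26 to 74 and 62 (1.23 ± 0.15, adjusted p = 1.65e-05), whereas Orc3 (-0.43 ± 0.15, adjusted p = 0.0292) and Orc2 (-0.35 ± 0.12, adjusted p = 0.0414) fell. Cdc6, among the most changed at OB day 14, had 72 and 52 with BMP4 and was not called (0.28 ± 0.26, adjusted p = 0.445). Of the MCM subunits 4 of 6 rose, led by Mcm4 from 378, 393, 356 and 376 to 866 and 818 (1.16 ± 0.17, adjusted p = 6.58e-05), and Mcm2 (0.29) and Mcm6 (0.51) were not called.

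The other roles also had calls in only part of their genes. Of all genes, 15% were called higher and 17.5% lower, and the few polymerase calls below are not shown to exceed those shares. Polymerase genes had 2 of 9 higher, Pole2 (0.99 ± 0.28, adjusted p = 0.0123) and Prim1 (0.62), and 1 lower, Pold2, the second subunit of polymerase delta, from 168, 153, 172 and 120 to 116 and 79 (-0.66 ± 0.21, adjusted p = 0.0223). In the clamp group Pcna rose from 622, 624, 667 and 553 to 1050 and 1208 (0.87 ± 0.12, adjusted p = 2.83e-05) and Rfc3 rose by 0.69. The loader subunit Rfc2 fell from 260, 284, 266 and 243 to 178 and 156 (-0.65 ± 0.15, adjusted p = 0.00244). RPA genes had 2 of 3 higher, with Rpa1 at 1205 and 1046 against 650, 629, 630 and 560 without BMP4 (0.86 ± 0.16, adjusted p = 0.000536), above all OB day 14 libraries as well.

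Rrm1 rose by 1.24 ± 0.18 (adjusted p = 6.64e-05), to 1786 and 1722. Lig1 (0.54) and Tk1 (0.49) rose too, and Fen1 (0.26) and Tyms (-0.07) were not called. Of the 25 calls, 8 held without each library in turn: Orc1, Mcm4, Gins2, Pcna, Rpa1, Rpa2, Rrm1 and Rrm2. The count was 11 without the first BMP4 library and 12 without the second. Epithelial markers moved with this result, their summed level of 8 genes being 1005 to 2030 with BMP4 and 68 to 119 without, and Cldn6 was at 0 in all 4 libraries without it. The fibroblast sum was 24127 to 25040 against 37187 to 39970, and the neural progenitor sum 2601 to 2856 against 5333 to 6589. Their part in the result was not tested.

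**Figure D4:**
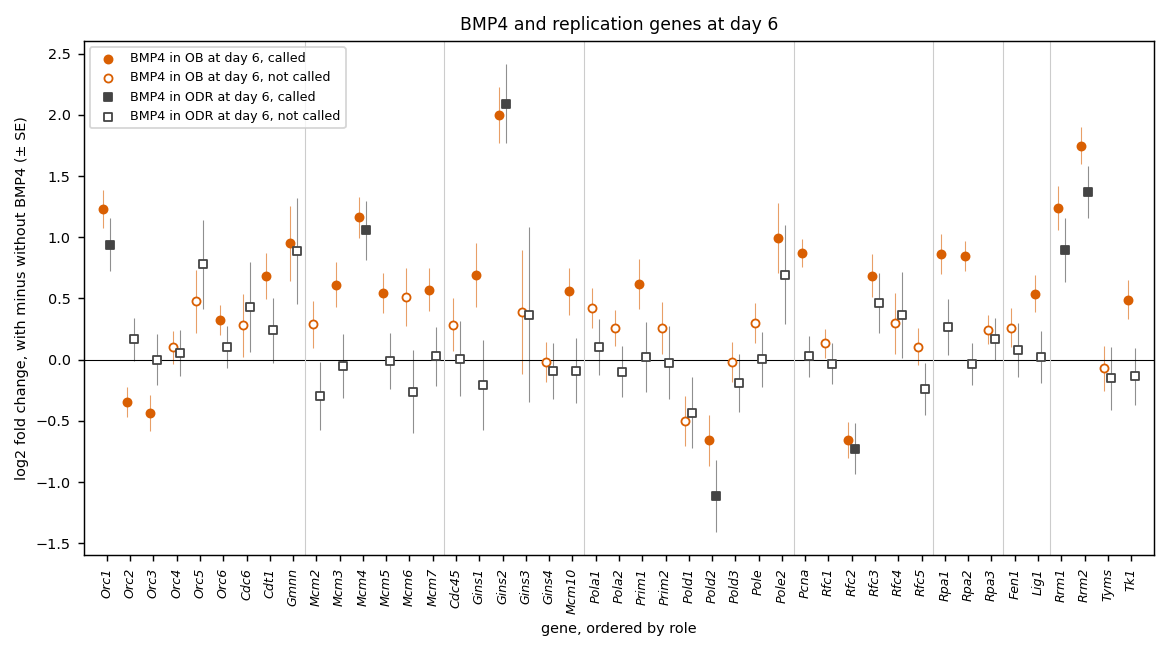
Log2 fold change with BMP4 at day 6 for each replication gene, in OB (circles, 2 libraries with BMP4) and ODR cells (squares, 1 library with BMP4), with bars of ± 1 SE from the limma fit. Filled symbols are called. Gins2 has the highest point in both, 4.01-fold in OB and 4.26-fold in ODR, Pold2 and Rfc2 are below 0 in both, and Pcna and Rpa2 differ in their estimates.

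In ODR cells, where 1 library with BMP4 was tested and its spread is assumed to be that of the other groups, 5 genes were higher and 2 lower, beside 5.06% and 6.46% of all genes. Gins2 was at 506 with BMP4 and at 114 and 122 without (2.09 ± 0.32, adjusted p = 0.000664). Rrm2 was at 1038 against 440 and 367 (1.37 ± 0.21, adjusted p = 0.000706), and Mcm4 (1.06), Orc1 (0.94) and Rrm1 (0.90) were the other higher genes. Pold2 was at 85 against 166 and 206 (-1.11 ± 0.30, adjusted p = 0.0207) and Rfc2 at 176 against 336 and 254 (-0.73 ± 0.21, adjusted p = 0.0307).

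The effects in OB and ODR share no library. All 5 genes higher in ODR were among the 21 higher in OB (23.8% of the OB list). Both lower genes were among the 4 lower in OB (50% of that list). The overlap of calls over all genes was not counted, so this overlap is not shown to be particular to the replication genes. Pcna was at 750 with BMP4 in ODR, inside the range of 817 and 664 without it (0.03 ± 0.16, adjusted p = 0.961), and Rpa2 at 140 between 152 and 136 (-0.04). Whether the effect of BMP4 differs between the combinations was not tested. Of the 7 ODR calls, Orc1, Gins2 and Rrm2 held without either ODR library. None was called in a fit of only these groups, or when the shared library was kept as a BMP4 library.

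Set against the single stem cell and fibroblast libraries, which allow no test, the OB day 14 libraries lay between. In the mESC library 38 of the 45 genes were more than 2-fold above the MEF library and 0 more than 2-fold below, beside 23.1% and 27.7% of all genes, with a median log2 difference of 2.05. The 7 others were Orc3, Orc4, Orc5, Gins2, Gins3, Gins4 and Rrm1. All 3 OB day 14 libraries were above the MEF library in 42 of the 45 genes and all were below the mESC library in 35. These counts were not made over all genes, so the position between is not shown to be particular to the replication genes. The median over the 45 was 1.46 above MEF for OB day 14 and -0.16 for ODR day 14.

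Single genes show how far this went. Orc1 was at 34 in MEF, 15 to 18 in ODR day 14, 96 to 116 in OB day 14 and 368 in mESC, so OB cells remained well short of the stem cell library. Mcm7 was at 310 in MEF and 2010 in mESC, with OB day 14 at 1310 to 1431. In Rrm1, Tk1 and Rfc3, by contrast, all OB day 14 libraries were above mESC: Rrm1 at 1754 to 2222 against 1064, Tk1 at 284 to 324 against 245, and Rfc3 at 257 to 276 against 210. Gins2 was at 338 in mESC, within the OB day 14 range of 334 to 461 and below all 3 tested libraries with BMP4.

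**Figure D5:**
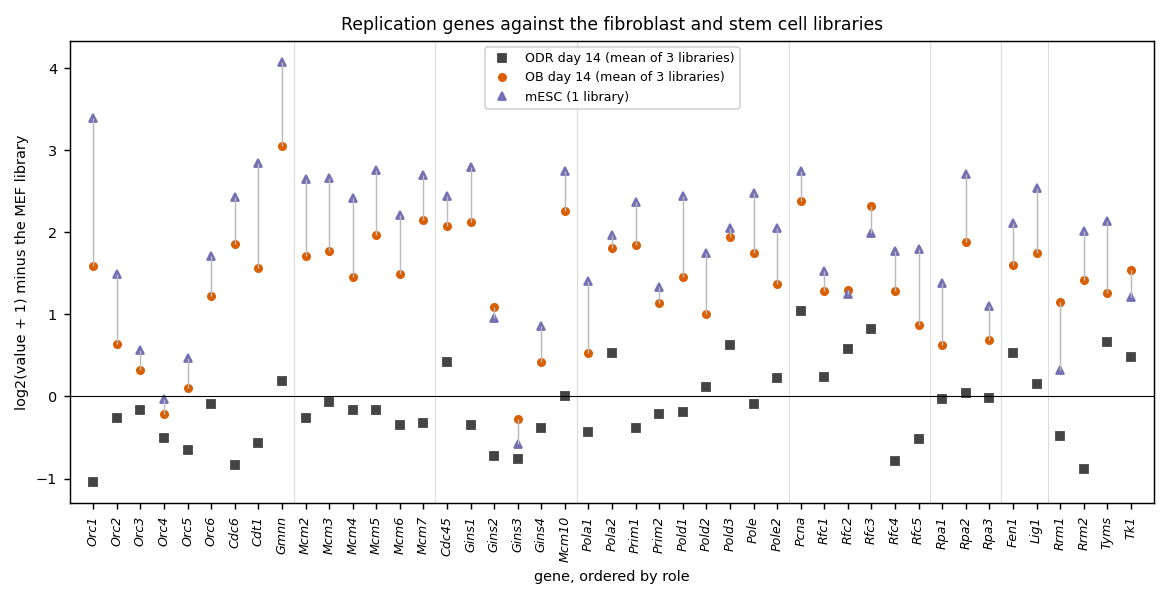
Level of each replication gene in ODR day 14, OB day 14 and mESC relative to the single MEF library, as a difference in log2(value + 1), with grey lines joining OB day 14 to mESC. OB day 14 lies above ODR day 14 for every gene, most mESC points lie above both, and mESC is below OB day 14 for genes such as Rrm1 and Tk1.

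At day 9, with 1 library each and no test, all 45 genes were higher in the ODB than in the ODDR library. The median log2 difference was 0.87 over the 45 and 0 over all genes tested. Of the 45, 18 genes were more than 2-fold higher and 0 more than 2-fold lower, beside 11.2% and 12% of all genes. Mcm7 had the largest difference, at 856 against 284 (1.59), and Orc3 the smallest, at 224 against 220 (0.03). Gins3 was at 248 against 98, above its value in each tested library.

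Other cell cycle and replication genes gave the same picture at OB day 14, with exceptions. Of 25 further firing and fork factors, 22 were called higher than in ODR and 1 lower. For this and the further lists at day 14, the shares of all genes were 28% higher and 26.7% lower. Wdhd1, a fork protein that links helicase and polymerase alpha, was at 498 ± 34.4 (SD, n = 3) against 103 ± 12.1 (2.26 ± 0.14, adjusted p = 2.98e-09), with Topbp1 (1.28) and Tipin (1.92) next. Pold4, the smallest subunit of polymerase delta, was the lower one at 25.3 ± 11.8 against 90.7 ± 17.8 (-1.87 ± 0.25, adjusted p = 7.59e-06). Of 10 further nucleotide supply genes 7 were higher, among them Dut (1.47) and Dctpp1 (2.12), and 1 lower, the p53-inducible reductase subunit Rrm2b (-0.73).

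Of 20 S phase regulators 18 were higher, among them Dtl (1.93), cyclin A2 (Ccna2, 2.06) and E2f3 (0.95), and 1 lower, the pocket protein gene Rbl2 (-1.35). Of 9 genes of chromatin replication 8 were higher and 0 lower. Nasp, a histone chaperone, stood out at 3316 to 5070 in OB against 213 to 244 in ODR day 14 (4.11 ± 0.28, adjusted p = 7.12e-09), and Uhrf1 (2.13) and Asf1b (1.37) followed. At day 6, OB cells had more Rb1, the retinoblastoma gene, at 544 to 824 against 154 and 176 in ODR (2.06 ± 0.29, adjusted p = 2e-04), and at day 14 it was 182 to 232 against 164 to 208. With BMP4 in OB cells at day 6, 4 of the 25 firing and fork factors were called higher (Topbp1, Clspn, Donson and Rnaseh2c) and 0 lower, beside 15% and 17.5% of all genes. Samhd1 was called higher and Dut lower of the 10 nucleotide supply genes, 8 of the 20 S phase regulators were called higher and 1 lower, and of the 9 chromatin genes Asf1b was called higher and 0 lower. There Rb1 fell to 300 and 307 (-1.19 ± 0.29, adjusted p = 0.00438), and E2f2, between 15 and 21 without BMP4, was at 96 and 128 with it (2.59 ± 0.32, adjusted p = 1.31e-05).

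Summed markers of other cell types also differed between OB and ODR at day 14, with calls in part of each list. The 10 pluripotency markers summed to 952 to 1054 in OB and 10 to 16 in ODR, where Zfp42, Dppa3, Tdgf1 and Lin28a were at 0, against 17134 in mESC. The 10 fibroblast markers summed to 20085 to 26265 in OB and 36094 to 46473 in ODR, the 8 epithelial markers to 87 to 226 and 7 to 10 (Cdh1, Cldn4 and Cldn6 at 0 in ODR), and the 8 neural progenitor markers to 2579 to 3230 and 3970 to 5279, with Fezf1 and Neurog2 at 0 in ODR. The 6 measured macrophage markers summed to 6 to 36 in OB and 42 to 88 in ODR, with Tyrobp at 0 in OB. Of the 8 neural progenitor markers 3 were called higher in OB and 1 lower, with 6 estimates above 0, although their sum was lower. Of the fibroblast markers 1 was called higher and 2 lower, with 7 not called, and of the 6 macrophage markers 1 was called lower. Of all genes, 28% were called higher and 26.7% lower, so the lower calls in both lists were no larger a share. The filter on low values kept 6 of the 8 epithelial and 4 of the 10 pluripotency markers. A marker near 0 in most groups passes it only through libraries where it is high, OB day 14 among them. Higher calls in these 2 lists were thus partly fixed by the filter. All 6 epithelial markers tested were called higher, as were 3 of the 4 pluripotency markers tested. Their part in the result was not tested.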

How the data were processed

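The deposited values are normalized tag counts per gene, here treated as a score because the authors' columns share nearly the same total and ceiling. bcl2fastq, Bowtie2 2.2.5, RSEM and build mm10 are listed in the submitters' processing notes. How the counts were normalized, and whether counting used strand, are not given in the sources used here. Of the 45 genes, 14 overlap exons of a gene on the opposite strand (Mcm7, Gins2, Orc1, Orc2, Orc4 and Rfc2 among them), 4 overlap one on the same strand, and 2, Pcna and Tyms, have named pseudogenes, so their levels are less certain.

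Values were taken as log2(value + 1), and fold changes on this scale understate those of low genes. A mean for each of 11 groups was fitted to 27 libraries with limma 3.58.1 in R 4.3.3, with 16 residual degrees of freedom, two-sided tests and Benjamini-Hochberg adjustment over 13860 genes in each of 19 comparisons, of which 2 test a difference between differences. On simulated data for OB against ODR at day 14 (13860 genes), 72% of changes of 1 and 99% of changes of 2 on the log2 scale were recovered. The same shares over as many genes were 66% and 95% at day 1, 80% and 94% at day 6, 80% and 96% for BMP4 in OB and 45% and 83% for BMP4 in ODR. In each simulation 100 genes changed by each amount, none of them low genes, and the rest did not change. At day 14 of the data 28% of genes were called higher and 26.7% lower. The adjusted p cutoff was thus not alike, and the simulated shares do not measure the power of that test. The genes, lists and tests were chosen with earlier results of these data known. In each comparison the named genes, used in the checks below, were picked by rule. They were the called gene with the largest change in each role and called genes against the majority. Where most of the 45 genes were called, the uncalled ones were added. Full statistics go to many of these and to some other genes, and further genes are given by value or estimate. Not every uncalled gene is described, as for BMP4 in OB. Of the further lists, up to 3 genes in each direction by adjusted p are named, and 1 gene that this rule names is not reported here. Comparisons with ODR at one day share its libraries. Alternatives were another pseudocount (10), no filter, trend and robust options, a fit of only the groups compared, median-of-ratios rescaling, a replicate block, the shared library kept under either label, and each library left out.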

Additional observations from a re-analysis of the deposited data

Results flagged for a closer look

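OB day 6 was the only group of 4 to 10 libraries, and in 3 of the 45 genes 1 library there stood far from the other 3. Orc5 was at 268 in the lowest library, with the others at 334 to 337. Rfc1 was at 369 in the highest library, with the others at 342 to 344, and Fen1 at 190 in the lowest, with the others at 224 to 226. Chance gives about 1 in 20 such cases, and none of the 3 genes was called between OB and ODR at day 6.

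The difference between OB and ODR changed from day 1 to day 14 in 38 of the 45 genes by the test of that change (limma, adjusted p below 0.05), all upward. The smallest called estimate was that of Orc2, 0.61 ± 0.19 (adjusted p = 0.0164).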

How the results depend on the processing

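Of the 72 called values of named genes, 0 changed direction and 48 kept their call and sign under the alternatives named in the methods. The depth is unknown, so low genes such as Gins1 and Gmnn carry an unmeasured counting error. The day 14 counts for OB, 43 against ODR and 41 against OA, stayed within 1.5 times, as did the change since day 1 (38) and the OB rise from day 6 (42). The small counts moved, and the cause was not tested. OB against ODR at day 6 (2 calls) gave 4 with pseudocount 10, 4 with trend and robust options and 1 in a fit of only the groups compared. In that last fit OA against ODR at day 14 (3) gave 0, OB against OA at day 6 (2) gave 1, ODR day 14 against day 6 (6) gave 3 and BMP4 in ODR (7) gave 0. With the shared library kept as ODR with BMP4 these 4 gave 1, 1, 3 and 0, and with it kept as ODR without BMP4 ODR day 14 against day 6 gave 10 and OA day 14 against day 6 gave 1. OA day 14 against day 6 (0) gave 1 with pseudocount 10 and 1 with trend and robust options.

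Same-numbered libraries deviated together at r from -0.16 (OB against ODR at day 6, 2 pairs) to 0.32. In the 6 comparisons with 3 pairs every same-numbered r was above 0, from 0.01 to 0.32. In 0 of these 6 did every pair exceed 0.1, and by that cutoff the numbers were not taken as pairs. The day 1 comparisons, with 2 pairs each, did exceed it. There r was 0.24 for OB against ODR, 0.22 for OA against ODR and 0.20 for OB against OA. Whether a replicate number marks a batch was not tested. With the replicate block, OB against ODR at day 6 gave 1 call, OA against ODR at day 14 gave 5, OA day 14 against day 6 gave 1 and BMP4 in OB gave 18. At the other comparisons the block kept the count within 1.5 times.

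Leaving out 1 library at a time gave 0 to 4 calls for OB against ODR at day 6, 42 to 44 at day 14, and 2 to 10 for OA against ODR at day 14. OB against OA gave 0 to 1, 0 to 2 and 41 to 42 at days 1, 6 and 14. From day 1 to day 6 the counts were 2 to 7 in ODR, 8 to 19 in OA and 5 to 9 in OB, and from day 6 to day 14 they were 1 to 9, 0 to 4 and 39 to 42. BMP4 gave 11 to 25 in OB and 4 to 7 in ODR, and the change since day 1 gave 34 to 41 for OB. The remaining comparisons stayed at 0. Leaving the library labelled OA day 14 replicate 2 out of comparisons that do not contain it was added after seeing the data. It gave 4 calls for OB against ODR at day 6 and 1 for OB against OA at day 1. The other counts stayed within 1.5 times. The ranges above include it. Among the fits without 1 library, only it gave these upper ends and those of 7, 19 and 9 from day 1 to day 6. The same holds for the upper ends of 9 in ODR from day 6 to day 14, for BMP4 and for the change since day 1. Leaving out a library of the groups compared gave at most 14 in OA and 7 in OB from day 1 to day 6. Such fits gave at most 3 in ODR from day 6 to day 14 and 22 for BMP4 in OB.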
